A study of Mus musculus with 8 samples.

Results

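The 10 genes described here belong to the integrated stress response, and most are known targets or partners of the transcription factor ATF4: Atf4, Atf5, Ddit3, Trib3, Chac1, Ddit4, Asns, Psat1, Phgdh and Mthfd2. They were picked by symbol from the 23432 symbols in the deposited count files, and all 10 were present. In this response, kinases that sense unfolded protein, amino acid shortage, haem shortage or double-stranded RNA phosphorylate the translation factor eIF2, which lowers general translation while the Atf4 mRNA is translated more. ATF4 then binds, with C/EBP partners, to genes for amino acid synthesis, for transport and for the end of the response itself. The libraries described here measure mRNA only, so they show neither phosphorylated eIF2 nor ATF4 protein. The study deleted MOF (gene Kat8), an acetyltransferase of histone H4, or Kansl1, a subunit of 1 of the complexes that MOF works in, from mouse epidermis with a keratin 14 Cre driver (K14Cre). Both deletions used that driver, and RNA was read at E16.5 for MOF and in newborn pups at P0.5 for Kansl1. Each deletion had its own controls of the same stage, with 2 libraries per group and 8 in all.

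The E16.5 libraries came from back-skin cells carrying the K14-H2BGFP reporter, sorted by FACS, and the P0.5 libraries from all epidermal cells after dispase had freed the sheet. Mice were of a mixed C57Bl/6J and CD-1 background, both sexes were used, and the labels name the deletions as MOFfl/fl/K14Cre and Kansl1fl/fl/K14Cre without giving alleles for the controls. Gene counts per library were 27561688 and 24957817 in the E16.5 control, 22484018 and 25876862 in the MOF cKO, 9108709 and 14327981 in the P0.5 control, and 19774643 and 13712311 in the Kansl1 cKO. A single count was worth 0.0326 to 0.0502 counts per 1000000 (CPM) at E16.5 and 0.0484 to 0.115 CPM at P0.5. Kat8 itself read 14.4 and 14.7 CPM in the E16.5 control and 12.4 and 13.9 in the MOF cKO (log2 fold change -0.14, SE 0.179, adjusted p 0.554 by edgeR's quasi-likelihood test with Benjamini-Hochberg adjustment), and 15.2, 19.7, 15.1 and 13.3 CPM in the P0.5 control and Kansl1 cKO libraries. Kansl1 read 40.7 and 48.2 CPM in the P0.5 control against 31.4 and 30.6 in the Kansl1 cKO (log2 fold change -0.52, SE 0.167, adjusted p 0.242, same test), and 129, 129, 152 and 131 CPM across the E16.5 libraries. A whole-gene count sums all exons, so the loss of an exon from a message that is still made would not be seen in these values, and they do not measure how complete either deletion was. Xist was 1520 and 10.2 CPM in the E16.5 controls and 12 and 9.99 in the MOF cKO, so the only Xist-high library at E16.5 was control replicate 1. At P0.5 it was 427 and 1.23 CPM in the controls and 371 and 423 in the Kansl1 cKO, with Ddx3y at 117 CPM in control replicate 2 and at 0 in the other 3 libraries. The labels do not say whether replicates were separate animals, litters or pools, and the methods speak of sample pairs and littermate controls without saying which libraries form a pair, so p-values here measure the spread between these samples. In bulk RNA, fewer cells of a type and less RNA per cell cannot be told apart.

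Compared per kilobase of exon, the members covered a wide range. In the E16.5 control Phgdh was highest (170 CPM per kb), then Atf4 (120), Psat1 (88.6), Ddit4 (79.5), Atf5 (26.4), Asns (13.7), Ddit3 (7.15), Mthfd2 (5.67), Trib3 (0.942) and Chac1 (0.032). In the MOF cKO the order at the top was Atf4 (204), Phgdh (168), Ddit4 (150) and Psat1 (111), and Chac1 was again last (0.408). The P0.5 control had Phgdh (101), Atf4 (85.4), Psat1 (70.6) and Ddit4 (50.6) at the top, Trib3 at 15.9 and Chac1 at 7.07, and Ddit3 at the bottom (4.22). Kansl1 cKO epidermis had Phgdh (140), Psat1 (87.6) and Atf4 (86.3) at the top and Mthfd2 lowest (2.79). So the 4 most abundant members were the same genes in every group, while Trib3 and Chac1 were the lowest members only at E16.5.

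**Figure D1:**
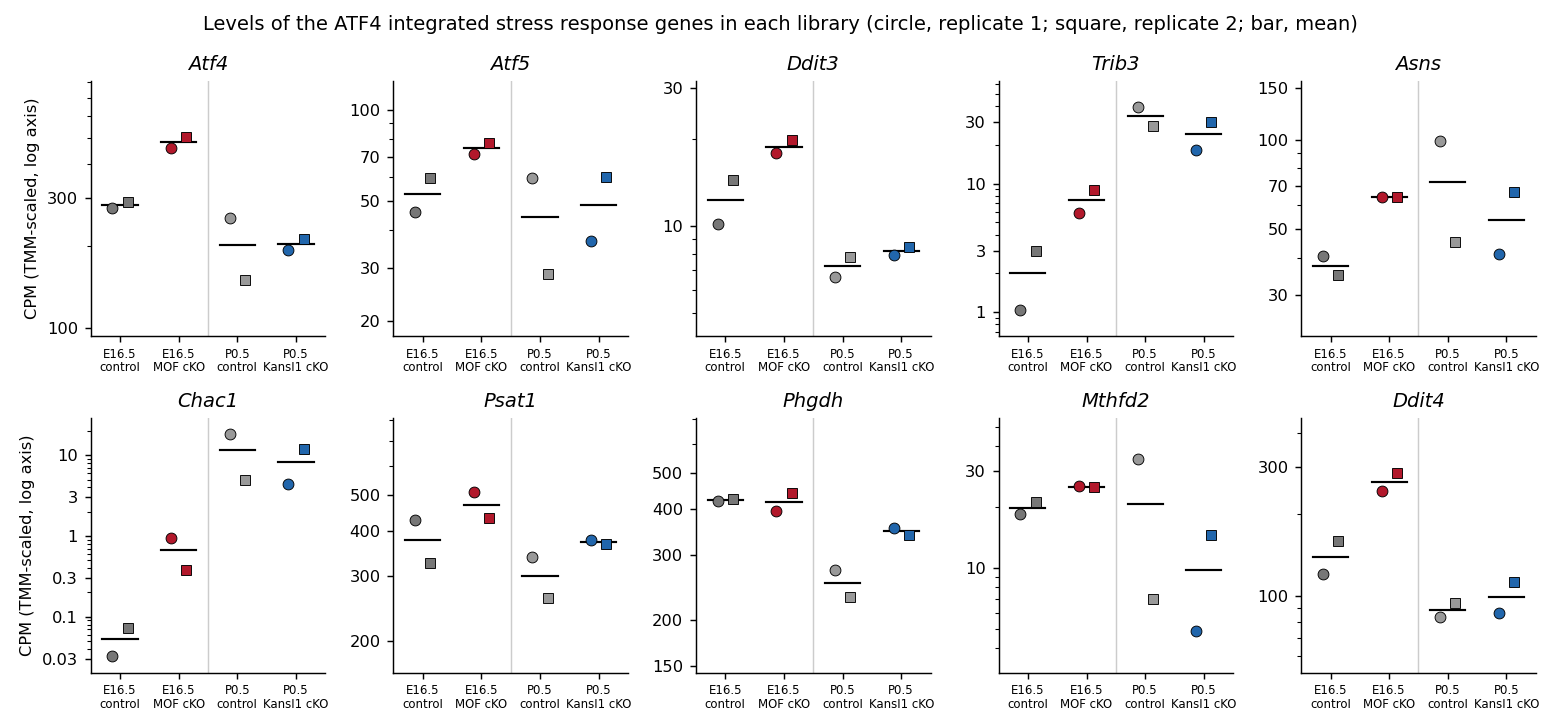
Level of each member in each of the 8 libraries, in CPM on a log axis. Circles are replicate 1, squares replicate 2 and bars the group mean.

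In the MOF cKO, 3 of the 9 members that could be tested were called higher than in the control and 0 lower (adjusted p at most 0.01 by edgeR's quasi-likelihood test with Benjamini-Hochberg adjustment, and a fold over 1.5), against 1395 genes called higher (10%) and 1338 called lower (9.59%) of 13956. By DESeq2, 4 members were called higher, against 13% of all genes. Of the 9, 8 had both MOF cKO libraries above both controls, as had 34.9% of all genes, and 6 had an unadjusted p under 0.05, as had 3314 genes higher and 3506 lower of all 13956. The members' median log2 fold change was 0.62, against -0.02 for all genes.

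Atf4 itself, the factor that the response turns on, read 275 and 291 CPM in the E16.5 controls and 457 and 504 CPM in the MOF cKO. Both MOF cKO libraries stood above both controls, by a log2 fold change of 0.77 (SE 0.106, 95% interval 0.52 to 1.01, adjusted p 0.00182 by edgeR's quasi-likelihood test). Atf4 mRNA therefore rose 1.70-fold, and the call held with each of the 4 libraries left out. Atf5, a related bZIP factor whose mRNA is also translated under stress, read 45.8 and 59.6 CPM in the controls and 71.4 and 77.7 in the MOF cKO. The groups did not overlap, but at a log2 fold change of 0.50 (SE 0.152, 0.15 to 0.86) and an adjusted p of 0.0353 by the edgeR test Atf5 was not called. The value hung on the controls: it was 0.71 without E16.5 control replicate 2 (adjusted p 0.00734, past both limits) and 0.32 without replicate 1 (0.224). The Atf5 locus overlaps Nup62 on the opposite strand, and the strand setting of the counting is not given, so its counts are uncertain (the spans of Mthfd2, on the same strand, and Psat1, on the opposite strand, also overlap an annotated gene, in both cases one absent from the files). Ddit3 (CHOP), the factor that ATF4 induces when stress is prolonged, read 10.1 and 14.4 CPM in the controls and 17.8 and 19.8 in the MOF cKO, again without overlap. Its log2 fold change of 0.62 (SE 0.218, 0.11 to 1.13) had an adjusted p of 0.0578 by the edgeR test and was not called, and it was 0.38 (0.302) without E16.5 control replicate 1 and 0.90 (0.0152) without replicate 2.

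Trib3, a pseudokinase that ATF4 and CHOP induce and that restrains ATF4 in turn, was low at E16.5, with 1.04 and 2.96 CPM in the controls (32 and 82 counts) and 5.87 and 8.89 CPM in the MOF cKO (117 and 210 counts). All MOF cKO values lay above the controls, and its log2 fold change of 1.89 (SE 0.524, 0.66 to 3.12) was the largest of the tested members. The 2 tools differed on it: adjusted p was 0.0260 by edgeR's quasi-likelihood test, not called, and 0.00188 by DESeq2 (log2 fold change 1.91), called. By edgeR it was 2.82 (adjusted p 0.000533) without E16.5 control replicate 2, 1.32 (0.0494) without replicate 1 and 1.56 (0.0679) without MOF cKO replicate 2. Chac1, which encodes a glutathione-degrading enzyme and is a late target of the pathway, had 1 and 2 counts in the controls (0.0326 and 0.0722 CPM) and 19 and 9 counts in the MOF cKO (0.954 and 0.381 CPM). These counts were too low for the test, and the ratio of 12.5 from 3 and 28 counts (95% interval 3.86 to 64.3) covers counting error only. Ddit4 (REDD1) is an inhibitor of mTORC1 that ATF4 shares with other signals, glucocorticoid and hypoxia among them. It read 120 and 159 CPM in the controls and 243 and 284 in the MOF cKO. Every MOF cKO library was above every control, and Ddit4 rose 1.89-fold (log2 fold change 0.92, SE 0.157, 0.55 to 1.29, adjusted p 0.00408 by the edgeR test). That call held with each library left out.

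Asns, which makes asparagine and is the classic amino acid response gene, read 40.4 and 34.8 CPM in the E16.5 controls and 63.9 and 64.1 in the MOF cKO. The MOF cKO libraries were higher and close together, and Asns rose 1.70-fold (log2 fold change 0.77, SE 0.126, 0.47 to 1.06, adjusted p 0.00359 by edgeR's quasi-likelihood test). Without E16.5 control replicate 2 the value was 0.66 with an adjusted p of 0.0112, which ended the call. Phgdh, the entry enzyme of serine synthesis, read 420 and 424 CPM in the controls and 394 and 441 in the MOF cKO, so the MOF cKO libraries lay on either side of the controls. Its log2 fold change was -0.01 (SE 0.105, -0.26 to 0.23, adjusted p 0.926, edgeR test). Psat1, the next enzyme of that route, read 427 and 327 CPM in the controls and 508 and 433 in the MOF cKO, a narrow separation. The log2 fold change of Psat1 was 0.32 (SE 0.151, -0.03 to 0.67) with an adjusted p of 0.133 by the edgeR test, and 0.14 without E16.5 control replicate 2. Mthfd2, the mitochondrial folate enzyme, read 18.5 and 21.1 CPM in the controls and 25.4 and 25 in the MOF cKO, higher in both. Its log2 fold change of 0.35 (SE 0.153, -0.01 to 0.71) had an adjusted p of 0.109 by the edgeR test. Of the 3 enzymes of serine and folate metabolism among the members 0 were called, beside 10% of all genes called higher and 9.59% called lower.

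These fold changes are read against a middle that depends on the scaling. Trimmed-mean (TMM) factors were 1.11 and 1.11 in the E16.5 controls and 0.886 and 0.913 in the MOF cKO, and with library size alone the median of all genes moved to -0.32 and the split of calls from 1395 higher and 1338 lower (51.0% higher) to 769 and 2743 (21.9% higher). Under that scaling 0 members were called: Atf4 was 0.46 (adjusted p 0.0121), Asns 0.46 (0.0224) and Ddit4 0.62 (0.0176) by the edgeR test. A scaling moves all genes alike, so the distance of the members' median from the all-gene median (0.64) does not depend on it. When all 8 libraries shared 1 estimate of spread, only Ddit4 kept its call (adjusted p 0.00521), and Atf4 (0.0212) and Asns (0.0981) lost it. In that fit 1337 of all genes were called higher and 1321 lower, and the members' median log2 fold change was 0.62. Without E16.5 control replicate 1, the only Xist-high library there, the 3 calls held: Atf4 0.72 (adjusted p 0.00202), Asns 0.88 (0.0012) and Ddit4 0.73 (0.00295), by the edgeR test.

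**Figure D2:**
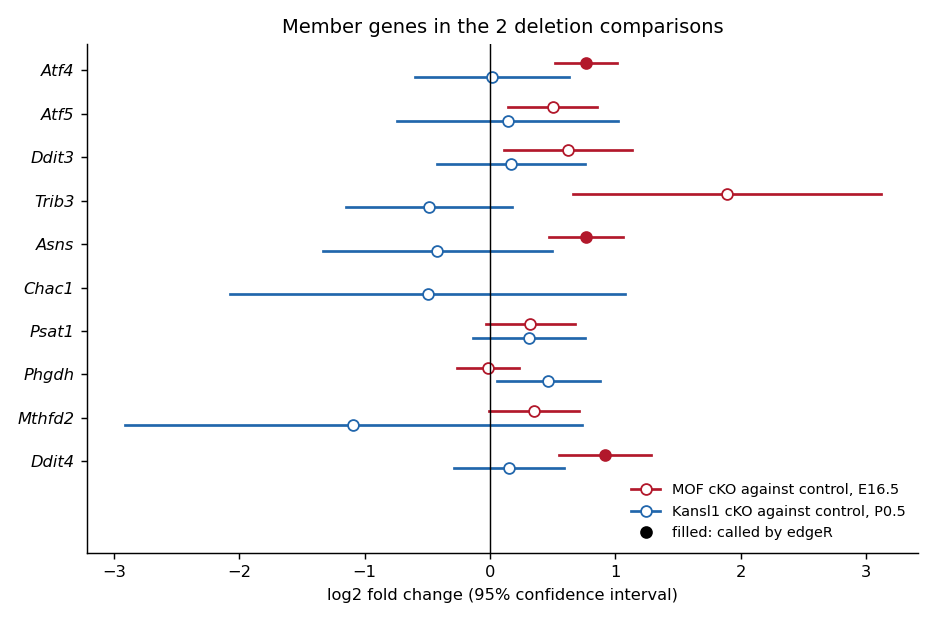
Log2 fold change of each member with its 95% interval in the MOF and the Kansl1 comparison. Filled symbols are called genes.

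In the Kansl1 cKO, 0 of 10 members were called by edgeR's quasi-likelihood test, as were 0 of all 13031 genes (0.0%). At an unadjusted p under 0.05 there were 968 genes higher and 1077 lower, the smallest adjusted p was 0.110, and DESeq2 called 35 genes higher and 66 lower of 11515 (0.877%), with 0 members among them. Of the members 6 were above and 4 below the control, with a median log2 fold change of 0.08 against 0.01 for all genes. Both Kansl1 cKO libraries were above both controls for 3 members (26.0% of all genes) and below both for 0 (22.7% of all genes). The 3 were Ddit3, Psat1 and Phgdh. The direction of 6 of the 10 changed when 1 library was left out: Atf4, Atf5, Asns, Chac1, Mthfd2 and Ddit4.

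Phgdh read 272 and 230 CPM in the P0.5 controls and 355 and 340 in the Kansl1 cKO, with the Kansl1 cKO libraries higher. It was the only member with an unadjusted p under 0.05 (log2 fold change 0.47, SE 0.172, 0.06 to 0.87, p 0.0309, adjusted p 0.279 by the edgeR test). Psat1 read 339 and 262 CPM in the controls and 378 and 367 in the Kansl1 cKO, also without overlap (log2 fold change 0.31, SE 0.188, adjusted p 0.472, edgeR test). Atf4 read 253 and 150 CPM in the controls and 194 and 213 in the Kansl1 cKO, so both Kansl1 cKO libraries fell between the controls. Its log2 fold change was 0.02 (SE 0.259, -0.60 to 0.63, adjusted p 0.985, edgeR test), 0.44 without P0.5 control replicate 1, -0.35 without the other control and -0.05 with Kansl1 cKO replicate 2 left out. Atf5 (59.5 and 28.6 CPM in the controls, 36.9 and 59.9 in the Kansl1 cKO) also overlapped, with Kansl1 cKO replicate 2 just above the higher control. Its log2 fold change was 0.14 (adjusted p 0.892 by the edgeR test), and leaving out the same libraries in turn gave 0.75, -0.33 and -0.25. Ddit3 values were 6.65 and 7.82 CPM in the controls and 7.9 and 8.46 in the Kansl1 cKO. The difference for Ddit3 was small, 0.17 with an adjusted p of 0.783 by the edgeR test. Ddit4 (83.3 and 94.1 CPM, then 86.1 and 112) overlapped between the groups, with 0.15 and an adjusted p of 0.728 by the edgeR test (-0.04 without Kansl1 cKO replicate 2).

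The other 4 members had lower averages in the Kansl1 cKO with overlapping libraries. Trib3 read 39.3 and 28.3 CPM in the controls and 18.4 and 29.9 in the Kansl1 cKO, Asns 98.7 and 45.3 against 41.0 and 66.4, Chac1 18.2 and 4.91 against 4.46 and 11.8, and Mthfd2 34.6 and 6.98 against 4.84 and 14.6. For each of these genes the order of the 4 libraries was the same: control replicate 1, Kansl1 cKO replicate 2, control replicate 2, Kansl1 cKO replicate 1. Their log2 fold changes were -0.49 (SE 0.28, adjusted p 0.449) for Trib3, -0.42 (SE 0.384, 0.638) for Asns, -0.50 (SE 0.663, 0.755) for Chac1 and -1.09 (SE 0.766, 0.528) for Mthfd2, all by the edgeR test. The span from lowest to highest of the 4 libraries was 2.14-fold for Trib3, 2.41-fold for Asns, 4.09-fold for Chac1 and 7.14-fold for Mthfd2. Within the control, replicates differed 2.18-fold for Asns, 3.71-fold for Chac1 and 4.96-fold for Mthfd2, against 1.34, 1.41 and 2.13-fold between groups. For these 3 genes the Kansl1 cKO replicates differed 1.62, 2.64 and 3.02-fold. Trib3 replicates differed 1.39-fold in the control and 1.63-fold in the Kansl1 cKO, against 1.4-fold between groups. Mthfd2 without Kansl1 cKO replicate 2 was -2.07 with an adjusted p of 1.33e-05 by the edgeR test, past the limits for a call, but 0.45 without P0.5 control replicate 1. Asns (0.24) and Chac1 (0.70) were also above the control without that library, and Chac1 (0.02) without Kansl1 cKO replicate 1. Members' direction as a group hung on single libraries: their median was 0.45 without P0.5 control replicate 1, -0.34 without P0.5 control replicate 2 and -0.15 without Kansl1 cKO replicate 2.

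This spread within the P0.5 groups was wider for the members than for all genes. With 0.5 CPM added to each value, 5 of 10 members in the P0.5 control differed by over 1.5-fold between replicates, against 16.2% of 13031 genes, and in the Kansl1 cKO 5 of 10, against 12.8%. At E16.5 it was 1 of 9 members in the control (10.7% of all genes) and 0 of 9 in the MOF cKO (15.9%), where Trib3 differed by 1.51-fold before that addition. By the median size of the log2 difference between replicates, the members were also wider than all genes in the E16.5 control (0.38 against 0.17), as in the P0.5 control (0.61 against 0.26) and the Kansl1 cKO (0.53 against 0.21), but not in the MOF cKO (0.15 against 0.22). Atf4 and Atf5 varied too, by 1.69-fold and 2.09-fold across the 4 P0.5 libraries, while Ddit3 (1.27-fold), Ddit4 (1.34-fold), Psat1 (1.44-fold) and Phgdh (1.54-fold) varied less. Trib3, Asns, Chac1 and Mthfd2 were highest in control replicate 1 and next in Kansl1 cKO replicate 2. For Trib3 the latter (29.9 CPM) was close to control replicate 2 (28.3). The summed level of suprabasal keratinocyte markers was also high in the first 2 of these libraries: 76100 CPM in control replicate 1 and 73000 in Kansl1 cKO replicate 2, against 42700 and 43500 in the other 2 libraries. Krt1 was the top gene of that sum in each (35400, 18100, 20500 and 31000 CPM), and whether the share of suprabasal cells accounts for the members' spread was not tested.

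Whether the members responded more to 1 deletion than to the other was tested over all 8 libraries as the difference of the 2 effects. The 2 effects also differ in stage, in how the cells were isolated and, by the study's methods, in the sequencer (HiSeq for MOF, NovaSeq for Kansl1), so the difference cannot be laid to the deleted gene alone. By edgeR's quasi-likelihood test 0 of 10 members were called, against 256 genes higher (1.76%) and 170 lower of 14565, and 6 members had an unadjusted p under 0.05 (2152 genes higher and 2388 lower did). DESeq2 called 2 members, Trib3 and Chac1, against 6.83% of all genes higher. For Trib3 the difference was 2.35 on the log2 scale (SE 0.608, 0.98 to 3.72), with an adjusted p of 0.0355 by the edgeR test and 0.000484 by DESeq2 (2.45). For Chac1 it was 3.98 (SE 1.36, 0.93 to 7.03), with 0.0803 by the edgeR test and 0.00674 by DESeq2 (4.26), and rests on the 3 control counts at E16.5. Leaving out each library in turn gave differences of 1.76 to 3.42 for Trib3 and 2.79 to 4.83 for Chac1. Atf4 had a difference of 0.72 (SE 0.300, adjusted p 0.140), Ddit4 0.73 (0.0914) and Asns 1.15 (0.126) by the edgeR test, so the 3 genes called in the MOF cKO were not shown to respond differently in the Kansl1 cKO by this test. Of 14 alternatives, 1 called Asns (the low-count filter dropped) and 0 called Atf4 or Ddit4. Without P0.5 control replicate 1 the difference was 0.29 for Atf4 and 0.50 for Asns. The difference for Phgdh was -0.51 (SE 0.187, adjusted p 0.0986, edgeR test), the only sizeable one below 0.

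The controls alone showed how the members' baseline differed between the 2 experiments, where stage, isolation and sequencer cannot be told apart. Scaled together, Trib3 read 0.987 and 2.81 CPM in the E16.5 controls and 47.2 and 33.6 in the P0.5 controls, and Chac1 0.0309 and 0.0685 against 21.9 and 5.84. Both genes were far higher in both P0.5 libraries and were called by edgeR's quasi-likelihood test, as were 22.2% of all genes: Trib3 at a log2 fold change of 4.42 (SE 0.444, adjusted p 0.000124) and Chac1 at 7.96 (SE 0.891, adjusted p 0.000211). With each library left out in turn the values ran from 3.84 to 5.33 for Trib3 and from 6.77 to 8.66 for Chac1. Set against counting error alone, Chac1 in the P0.5 control was 238 times the E16.5 control (80.4 to 1160), so the MOF cKO value of Chac1 stayed far under the level of newborn control epidermis. Asns read 38.2 and 33.0 CPM at E16.5 and 119 and 53.8 at P0.5, higher in both P0.5 libraries. Its log2 fold change of 1.27 (SE 0.321) had an adjusted p of 0.0105 by the edgeR test, not called, and 0.000306 by DESeq2 (1.31), called, and it was 0.60 (adjusted p 0.0194, edgeR) without P0.5 control replicate 1 and 1.73 (6.76e-05) without replicate 2. Phgdh read 397 and 402 CPM at E16.5 and 327 and 274 at P0.5, lower in both, at -0.41 with an adjusted p of 0.0572 by the edgeR test. With library size alone Phgdh (-0.88) and Ddit4 (-0.77) were called lower, beside 4340 of all genes (2436 with TMM). The members' median then moved from 0.04 to -0.44. Mthfd2 (17.5 and 20 CPM, then 41.6 and 8.30) overlapped, and its direction turned on 1 library: 0.38 with all 4 (adjusted p 0.599), -1.17 (0.0054) without P0.5 control replicate 1 and 1.15 (0.00133) without replicate 2, by the edgeR test. Atf4 (-0.15), Ddit3 (-0.42), Ddit4 (-0.32), Atf5 (0.07) and Psat1 (0.01) were not called, and without P0.5 control replicate 2 Atf4 was 0.18, while Atf5 was -0.55 without P0.5 control replicate 1 and -0.11 without E16.5 control replicate 1, and Psat1 -0.19 without P0.5 control replicate 1 and -0.17 without E16.5 control replicate 2.

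Genes around the members in the same pathway were read in the MOF comparison as lists, each with its count of calls by the edgeR test, to be set beside the 10% of all genes called higher and 9.59% called lower. Among 15 genes for eIF2, its kinases and regulators, 1 was called higher and 2 lower, and the median was 0.07, which turned to -0.24 under library size alone, with 1 higher and 4 lower: Eif2s1, the regulated subunit of eIF2, rose by 0.92 (112 and 103 CPM against 202 and 205, adjusted p 0.000895), while the haem-regulated kinase Eif2ak1 read 35.4 and 38.7 against 18.7 and 15.6 CPM (-1.11, adjusted p 0.00199) and the kinase for double-stranded RNA, Eif2ak2, 18.3 and 20.2 against 6.98 and 9.91 CPM (-1.18, adjusted p 0.00607; -0.96 and 0.0119 without MOF cKO replicate 1). Of 11 further genes listed as targets of the response 6 were called higher and 0 lower, with a median of 1.47 (5 higher and 1 lower under library size alone, 1.17). Among them were Sesn2 (2.1), Nupr1 (2.45), Stc2 (2.20) and Tnfrsf10b (2.35). Which factor raised the genes of this list, ATF4 or another such as p53, was not tested. Amino acid transporters had 3 of 9 called higher (median 0.55; 1 called and 0.24 under library size alone), led by the cystine carrier Slc7a11, which read 1.76 and 0.903 CPM in the controls and 34.1 and 20 in the MOF cKO (4.33, adjusted p 0.000542), with Slc1a4 (0.75) and Slc1a5 (0.79; not called without MOF cKO replicate 2, 0.64, or E16.5 control replicate 1, 0.72). The bZIP partners of ATF4 had 1 of 6 called higher, Nfe2l2 (1.13), with a median of 0.70 (0.39 under library size alone). None of 12 other enzymes of serine, folate and amino acid metabolism was called (median -0.04), and 3 were called lower under library size alone (-0.35). Cytosolic aminoacyl-tRNA synthetases had 2 called higher and 1 lower of 12 and a median of 0.26 that was -0.04 under library size alone: Cars read 0.84, Gars 0.70 (0.55 and not called without MOF cKO replicate 2) and Wars -1.08. Cars (0.53), Gars (0.40), Slc1a4 (0.45) and Slc1a5 (0.49) lost their calls under library size alone and also with all 8 libraries in 1 fit, where Stc2 lost its call too (adjusted p 0.0128). In the Kansl1 cKO 0 of 63 genes of these lists were called by edgeR (7 had an unadjusted p under 0.05) and 1 by DESeq2, Wars, named after its value was seen, which read 32.2 and 29.2 CPM in the controls and 15.9 and 14.4 in the Kansl1 cKO (-1.01, adjusted p 0.176 by the edgeR test; -1.03 and 0.00814 by DESeq2). The 12 synthetases had a median of -0.19 there, but 11 of them had overlapping libraries and 10 were above the control with 1 library left out.

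Neighbouring programs that share genes or signals with the members were counted in the same way. Of 11 p53 targets 9 were called higher in the MOF cKO, with a median of 2.05 (9 higher and 1 lower under library size alone, 1.75), among them Eda2r (4.52), Ccng1 (2.85), Trp53inp1 (2.66) and Cdkn1a (2.29). Mitochondrial chaperones and proteases had 3 of 11 called higher, Hspe1 (1.07), Hspa9 (0.91) and Hspd1 (0.78), with a median of 0.30 that was -0.01 under library size alone. Chaperones of the endoplasmic reticulum and other genes of the unfolded protein response had 2 called higher and 1 lower of 18, with a median of 0.05 that turned to -0.25 under library size alone: Syvn1 read 1.54, Sdf2l1 -1.30 and Edem1 0.64, the last not called with any 1 of the 4 libraries left out (0.62 to 0.67). Hypoxia and glucocorticoids are among the signals that also reach Ddit4, not all of them, and which signal raised Ddit4 was not tested. Hypoxia genes had 2 of 9 called higher (median 0.44, with Vegfa 1.11 and Egln3 0.80, or 0.64 and not called without MOF cKO replicate 1), or 1 higher and 1 lower under library size alone (0.13). Glucocorticoid-induced genes had 0 called higher and 1 lower of 5 (median -0.52, with Zbtb16 -1.51), or 2 lower under library size alone (-0.82). Immediate early genes had 2 of 9 called higher at a median of 0.34, but 0 higher and 1 lower under library size alone (0.03): Egr1 (0.64) and Fos (0.61) were not called without MOF cKO replicate 1 (0.58 and 0.55) or E16.5 control replicate 1 (0.49 and 0.46), nor Fos without MOF cKO replicate 2 (0.66). Hspd1 (0.47), Edem1 (0.34) and Egln3 (0.49) also lost their calls under library size alone, and Vegfa (adjusted p 0.0118), Egln3 (0.267) and Fos (0.0207) with all 8 libraries in 1 fit. In the Kansl1 cKO 0 of 62 genes of these neighbouring lists were called by edgeR or by DESeq2, and 6 had an unadjusted p under 0.05.

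**Figure D3:**
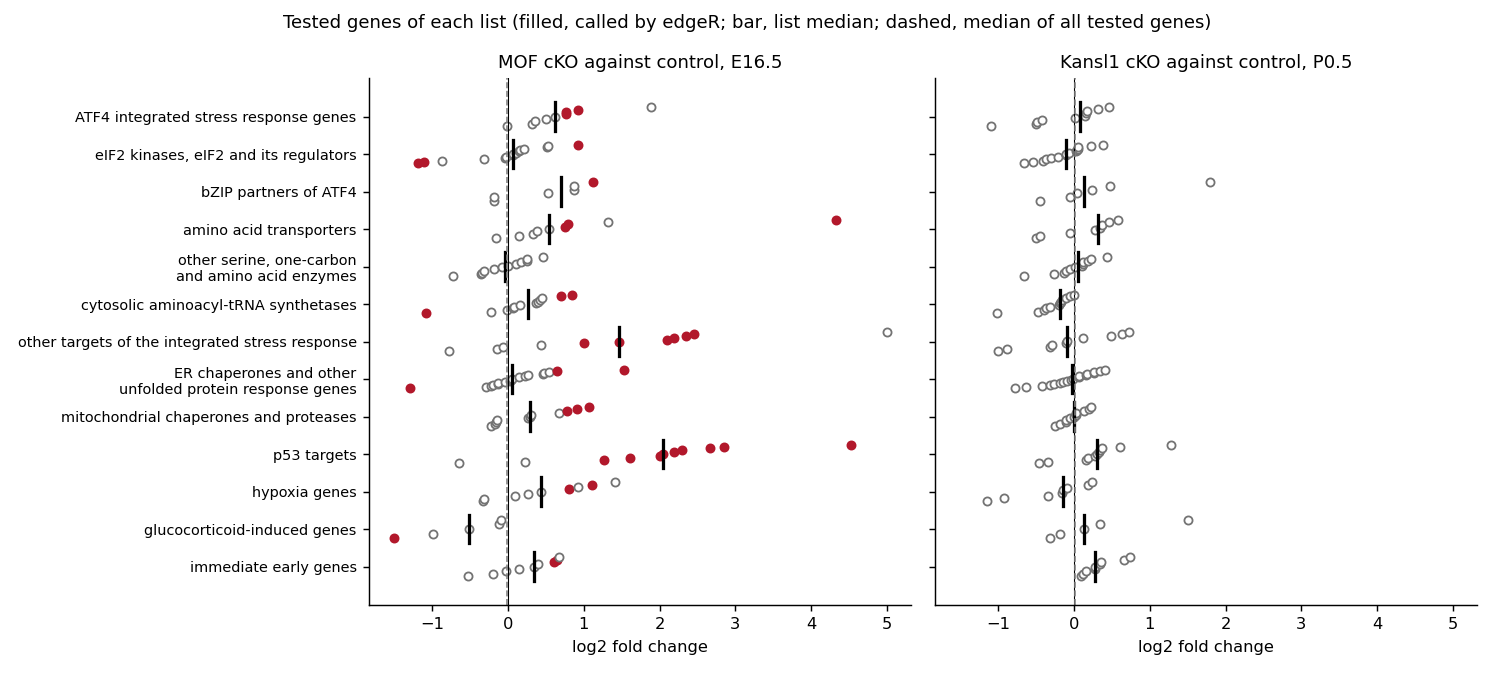
Log2 fold changes of the genes of each list in the MOF and Kansl1 comparisons. Bars are list medians and the dashed line is the median of all genes.

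Markers of cell types were read in every library, and their part in the result was not tested. Basal keratinocyte markers summed to 37400 and 35600 CPM in the E16.5 controls, 31300 and 38500 in the MOF cKO, 18500 and 19500 in the P0.5 controls and 17800 and 17600 in the Kansl1 cKO, with 7 of 7 detected and Krt5 on top. Suprabasal markers summed to 4080 and 3300 CPM in the E16.5 controls and 9060 and 9970 in the MOF cKO, with all 6 of the 7 listed that the files hold detected, and 5 of the 6 were called higher there (median 1.39). Macrophage markers summed to 23.7 and 48.5 CPM in the E16.5 controls and 117 and 149 in the MOF cKO. Cd68 was on top in both groups, with 18.1 and 41.7 CPM in the controls, most of their sums, and 22.9 and 51.9 in the MOF cKO. Tyrobp was at 0 in control replicate 2, and 8 of 14 were called higher. At P0.5 the macrophage sum was 217 and 252 CPM in the controls and 313 and 342 in the Kansl1 cKO. Merkel cell markers summed to 36.6 and 36.6 CPM in the E16.5 controls and 13.7 and 14.6 in the MOF cKO, where Krt8 was called lower (-2.47). Endothelial markers summed to 6.42 and 7.15 CPM in the E16.5 controls and 13.3 and 24.3 in the MOF cKO. Of these 5 markers 1 was called higher there (median 1.26), and 0 under library size alone. Their P0.5 sums were 6.3 and 2.46 CPM in the controls and 1.5 and 1.11 in the Kansl1 cKO. The fibroblast sum was 918 and 1560 CPM against 1550 and 2160 at E16.5, and melanocyte markers, with Dct on top, summed to 474 and 532 CPM in the P0.5 controls and 1030 and 1140 in the Kansl1 cKO. Skeletal muscle markers stood out in P0.5 control replicate 1, at 142 CPM (Acta1 121), against 1.94 in the other P0.5 control. At E16.5 they were highest in MOF cKO replicate 2, at 12.6 CPM (Myh3 8.55), against 1.66 in MOF cKO replicate 1 and 0.978 and 1.05 in the controls.

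The sequences near the start of each member were searched for the core of the element that ATF4 binds with C/EBP partners, TTNCATCA, on both strands, in windows from 250 bases before to 50 after each annotated start in the RefSeq annotation of build GRCm38.p6. All 10 members matched a window, 12 windows in all, and 3 of these windows carried the element, against 1304 of 32851 windows (3.97%), or 3 of the 10 members against 1219 of 27025 genes (4.51%). The spelling TTGCATCA was in 1 of the 12 windows, against 294 of all windows (0.895%). Chac1 carried TTGCATCA 193 bases before its start (plus strand, chr2:119351038-119351067), and Trib3 carried TTACATCA 15 bases after its start (minus strand, chr2:152344028-152344057). In Asns, read along its own minus strand (chr6:7693214-7693243), the element lay on the opposite strand as TTTCATCA, 23 bases before the start. In GENCODE M21, the source of the exon lengths, Trib3 starts at 152344032 and Asns at 7693254. By that annotation the Trib3 element lies before the start and the Asns element after it. A match is a description of the sequence and does not show that ATF4 binds there.
Chac1: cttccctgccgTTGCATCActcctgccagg
Trib3: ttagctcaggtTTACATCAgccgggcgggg
Asns: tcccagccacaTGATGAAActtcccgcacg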

How the data were processed

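Poly(A) RNA from 8 libraries, 2 per group, had been sequenced in pairs after a strand-specific preparation. The authors deposited raw read counts per gene symbol, made with HTSeq against mm10. The labels name TopHat2 as aligner and the study's methods HISAT2, and the study itself tested with DESeq2. Entries that name no gene, 21.1% to 26% of each file, were left out, with 8.57% to 15.4% non-unique alignments among them.

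Each experiment was fitted alone with edgeR 4.0.16 (limma 3.58.1, R 4.3.3): TMM scaling, the tool's own filter on low counts, the quasi-likelihood test and Benjamini-Hochberg adjustment over all genes kept, with a gene called at an adjusted p of at most 0.01 and a fold over 1.5. Another fit over all 8 libraries tested the difference between the 2 effects, and a further fit compared the 2 control groups. CPM values were TMM-scaled within each experiment, or over the 4 controls where these were compared. Alternatives were DESeq2 1.42.0, its size factors in edgeR, library size alone, no filter beyond 1 count, 1 fit for both deletions, a replicate block, an adjusted p of 0.05 and each library left out. Exon lengths came from GENCODE M21. The code was tested on simulated data, where it recovered most 4-fold changes in each comparison, over 0.5 of the 2-fold changes in the MOF comparison, few in the Kansl1 comparison and almost none for the difference between the effects. The changed genes were drawn only from those with an average log2 CPM above 1, so recovery was not measured for genes below that level. Besides the members, genes named were the deleted genes, sex markers and, from each of 22 lists, at most 4 called genes with the largest fold change (or the 2 most abundant where none was called), as well as the top gene of a marker sum; genes outside this rule are marked as named after their values were seen. Members and lists were chosen with earlier results of these data known, so no set test was made.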

Additional observations from a re-analysis of the deposited data

Results flagged for a closer look

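By the edgeR test of the difference between the deletions 0 of 10 members were called. By that test 6 members had an unadjusted p under 0.05, beside 2152 genes higher and 2388 lower of 14565. DESeq2 called 2 members, beside 6.83% of all genes called higher. Of 187 genes of the other lists edgeR called 24 (12.8%, against 2.92% of all genes). Lists and members were chosen with earlier results of these data known, so nothing is drawn from these shares. Of the 24 genes, the 15 that the rule for named genes picked are given without explanation (MOF effect minus Kansl1 effect, log2, adjusted p by the edgeR test). With the replicate number as a block 0 of the 24 were called. Among genes listed as targets of the integrated stress response, where the factor behind the change was not tested, the difference was 2.53 for Nupr1 (0.00126, with 2.45 in the MOF cKO and -0.11 in the Kansl1 cKO). It was 2.42 for Tnfrsf10b (0.00379, with 2.35 and -0.09) and 1.59 for Sesn2 (0.00706, with 2.1 and 0.49). Among p53 targets it was 3.22 for Eda2r (0.00523; 4.52 and 1.28), 2.72 for Cdkn1a (0.00679; 2.29 and -0.46), 2.49 for Ccng1 (0.000687; 2.85 and 0.33) and 2.28 for Trp53inp1 (0.00103; 2.66 and 0.35). Syvn1, of the unfolded protein response, differed by 1.25 (0.00704; 1.54 and 0.26), and the glucocorticoid-induced Zbtb16 by -3.05 (0.00447; -1.51 and 1.51). The suprabasal marker Ivl differed by 4.34 (0.00283; 4.26 and -0.12), from 11 and 20 counts in the E16.5 controls. Macrophage markers differed by 6.05 for Lyz2 (0.00028; 6.82 and 0.73), 5.67 for Tyrobp (0.00282; 6.02 and 0.28), 5.63 for C1qa (0.00028; 6.02 and 0.34), 4.65 for C1qb (0.000693; 5.67 and 0.98) and 3.95 for Csf1r (0.00379; 4.33 and 0.35). Their E16.5 control counts were low, at 3 and 8 for Lyz2, 4 and 0 for Tyrobp, 2 and 5 for C1qa, 5 and 9 for C1qb and 6 and 25 for Csf1r, so the size of these ratios is uncertain.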

How the results depend on the processing

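Single members mostly kept their side of the threshold, while some members that were not called changed direction. In the MOF comparison 86 values stayed on their side, 7 became called and 6 lost their call. The lost calls all fell on the called members: Atf4 kept its call in 9 of 11 alternatives, Asns in 8 and Ddit4 in 10. In the Kansl1 comparison 119 stayed and 1 became called. For the difference between the effects 134 stayed and 6 became called. Between the controls 99 stayed, 10 became called and 1 reversed. Counted by sign alone, called or not, 3 values changed direction in the MOF comparison (Phgdh), 12 in the Kansl1 comparison (6 of 10 members), 8 for the difference (3 members) and 13 between the controls (4 members). The only called value of opposite sign was Mthfd2 between the controls, -1.17 without P0.5 control replicate 1 (1.15 without replicate 2). For the 49 genes named from other lists in the MOF comparison, 490 values stayed on their side, 13 became called, 36 lost their call and 0 called values changed sign. Where a group was left with 1 library, that library was assumed to vary like the others.

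Counts of members moved as follows, and the cause was not tested. Members called higher in the MOF cKO were 0 with library size alone (median 0.32) and 1 with 1 fit over 8 libraries. With the difference between the effects, members called higher were 2 by DESeq2, 3 with the low-count filter dropped and 1 at an adjusted p of 0.05. Between the controls, members called lower were 2 with library size alone, and over the left-out libraries 0 to 1, with 2 to 4 called higher. In the Kansl1 comparison leaving out libraries gave 0 to 1 members called lower and medians of -0.34 to 0.45. The promoter element in its stricter spelling was in 1 member.

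The methods describe pairs of samples with littermate controls, but no label says that a replicate number marks a litter, so the pairing by number is uncertain. Deviations of same-numbered libraries correlated at 0.206 in the MOF, -0.202 in the Kansl1 and 0.0434 in the control comparison. With the replicate block 5 members were called higher in the MOF cKO, the 2 gained being Ddit3 (adjusted p 0.00474) and Trib3 (5.39e-05), and 0 in the Kansl1 cKO, and the counts of all genes went to 1903 higher and 2263 lower in the MOF comparison and to 1 higher and 0 lower for the difference. A crossed pairing of the Kansl1 libraries, chosen after seeing the data, called 0 members and 0 genes higher and 1 lower.

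Counts of all genes that moved by over 1.5 times were, for the MOF comparison, 769 higher and 2743 lower with library size alone, 2197 lower without the low-count filter and 2296 lower at an adjusted p of 0.05. The Kansl1 comparison gave 35 higher and 66 lower by DESeq2, 73 and 117 without that filter, 1 lower with library size alone, and up to 76 higher and 197 lower with a library left out. The difference between the effects gave 976 higher and 520 lower by DESeq2, 1112 and 539 without that filter, 1026 and 985 at 0.05, and as few as 61 higher and 12 lower with a library left out. Between the controls 4340 genes were lower with library size alone. With 2 libraries per group, small changes could be missed, above all for the difference between the effects, and more at P0.5 than at E16.5. Chac1 at E16.5 could not be tested for lack of counts.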

Other observations

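Beyond the stress response genes, markers of 2 cell types other than keratinocytes stood apart between the P0.5 groups by DESeq2, though not by edgeR. Of 7 melanocyte markers 4 were called higher in the Kansl1 cKO by DESeq2: Dct read 247 and 246 CPM in the controls and 498 and 570 in the Kansl1 cKO (log2 fold change 1.11, adjusted p 0.176 by edgeR's quasi-likelihood test and 3.62e-05 by DESeq2), and Tyr 35.7 and 44.7 against 83.1 and 95.2 CPM (1.14, 0.176 and 0.000829). Of 8 dermal fibroblast markers 4 were called lower by DESeq2 and 1, Dcn, was higher and not called (0.52): Col1a1 read 400 and 196 CPM in the controls and 80.2 and 77.9 in the Kansl1 cKO (-1.91, 0.176 by edgeR and 1.2e-05 by DESeq2), with the highest value in control replicate 1. These genes were named after their values were seen.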
